A study of Homo sapiens with 12 samples.

Results

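The effect of estradiol (E2) on gene expression in the presence of tumor necrosis factor alpha (TNFα) was examined by comparing 3 E2+TNFα libraries with 3 TNFα libraries, which make up 6 of the 12 RNA-seq libraries of the study. The cells were MDA-MB-231-ERβ, an engineered derivative of a triple negative breast cancer (TNBC) line that expresses full length estrogen receptor beta (ERβ) when doxycycline (dox) is added. TNFα libraries came from cells that received dox and ethanol vehicle for 5 days in medium with charcoal-stripped serum, with 20 ng/ml TNFα added for the final 3 h. E2+TNFα libraries came from cells that received 1 nM E2 in place of vehicle for the same 5 days and the same TNFα exposure. Dox is named in the labels of the TNFα samples but not in those of the E2+TNFα samples, for which it is taken from the study's methods. The remaining 6 libraries, from cells treated with vehicle or E2 without TNFα, did not enter the main test of the comparison. They are used to show levels, in the filter on low values, in the scaling of CPM and in an alternative fit. ERβ was expressed from an introduced construct that dox switches on, and a single engineered cell line was studied. The samples came from cells plated in triplicate dishes. The study's methods describe in vitro experiments in general as done in biological replicates and mention a correction for batches, but no source used here says which libraries came from separate cultures or shared a batch, so p-values measure only the spread between these samples, which may be technical. Since E2 preceded TNFα by 5 days, effects of E2 made before TNFα was added and effects on the response to TNFα cannot be told apart in this comparison.

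ERβ is a nuclear receptor that binds estrogen response elements (EREs) in DNA once bound by E2, and it recruits coregulators that raise or lower transcription. TNFα binds its receptors at the cell surface and releases the transcription factor NFκB, of which p65 (encoded by RELA) is a main subunit, from its inhibitors, so that genes of cytokines, chemokines and survival factors are transcribed within hours. In TNBC cells, NFκB signaling is known for driving inflammatory cytokine production and migration.

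Library totals were 19504540 to 30499211 reads in genes for TNFα and 16790200 to 36729990 for E2+TNFα. Spearman correlations across genes were 0.993 to 0.994 among the TNFα libraries and 0.974 to 0.991 among the E2+TNFα libraries, genes not being independent replicates. On the first principal component (74.8% of the variance) the groups were separate, and on the second (14%) E2+TNFα replicate 3 stood apart. In this library genes of the lowest quintile of exon GC content read lower than in the other E2+TNFα replicates by a median of -0.60 on the log2 scale, and genes of the highest quintile read higher by a median of 0.43. Among the 7 markers of a mesenchymal-like TNBC line, all were detected, and their summed level was 6776 to 6878 CPM (counts scaled to the size of each library) in TNFα and 9846 to 11440.0 CPM in E2+TNFα. The higher sum came mostly from FN1, at 901 ± 26.5 CPM (mean ± SD, n = 3) in TNFα and 5191 ± 391 in E2+TNFα. At an adjusted p of at most 0.1, 3 of the 7 markers rose (FN1, CAV1 and VIM), 1 fell and 3 gave no call. CAV1 rose by 1.04 on the log2 scale (adjusted p = 5.04e-05), from 190 ± 16.8 to 395 ± 52.7 CPM. CD44, a hyaluronan receptor gene, fell by 0.68 on the log2 scale (adjusted p = 0.000658). AXL, MSN and ZEB1, given here as markers, gave no call and overlapped between the groups. VIM, the mesenchymal intermediate filament gene, was at 1157 ± 100.1 CPM in TNFα and 1490.4 ± 194 in E2+TNFα. Of the luminal markers, KRT8 and KRT18 were abundant and CDH1 was at 1.90 ± 0.192 CPM in TNFα. The summed level of the 6 luminal or epithelial markers was 2151 to 2329 CPM in TNFα and 4117 to 5156 CPM in E2+TNFα. At an adjusted p of at most 0.1, 4 of these 6 rose, 1 fell and 1 gave no call. The marker that fell was GATA3 (log2 fold change -1.22, adjusted p = 0.000494). ESR1, PGR and FOXA1 were not analysed here. The fibroblast marker LUM had 0 reads in TNFα, the summed level of 4 fibroblast markers was at most 24.3 CPM and that of 2 immune markers at most 108 CPM.

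In total, 11303 genes were tested with the quasi-likelihood test of edgeR, and 623 (5.51%) were significantly regulated by E2 in TNFα-treated cells. Significance was set at a log2 fold change of at least 1.5 in size, a p under 0.05 and an adjusted p of at most 0.1, and genes meeting it are called induced or repressed below. Induced genes numbered 390 (3.45%) and repressed genes 233 (2.06%). When E2+TNFα replicate 3, the library that stood apart, was left out, 459 were induced and 271 repressed. Changes of any size at an adjusted p of at most 0.1, described below as rises and falls, were found for 5008 genes (44.3%), of which 2565 were higher in E2+TNFα (22.7%) and 2443 were lower (21.6%). Without E2+TNFα replicate 3, 6586 genes passed this adjusted p. These shares of all genes tested are the background for the counts of list members below, and no list was tested against them. The median log2 fold change of all genes tested was 0.02. For 609 of the 623 regulated genes every E2+TNFα library lay outside the range of the TNFα libraries, against 46.8% of all genes tested. The regulated genes were chosen by their change in these same libraries, so this follows largely from the choice and is no separate support. Large fitted changes were mostly rises, with 68 induced genes above 4 on the log2 scale and 9 repressed genes below -4. Such sizes are not reliable where the TNFα libraries hold few reads. In a fit to the 11576 genes with at least 10 counts in each of the 6 libraries, 326 were induced and 230 repressed. Log2 fold changes fell with exon GC content, from a median of 0.26 in the lowest quintile to -0.10 in the highest, and the part of GC content in the single results was not tested beyond the values given beside them. In bulk RNA, a change in the number of cells that express a gene and a change in RNA per cell cannot be told apart.

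**Figure D1:**
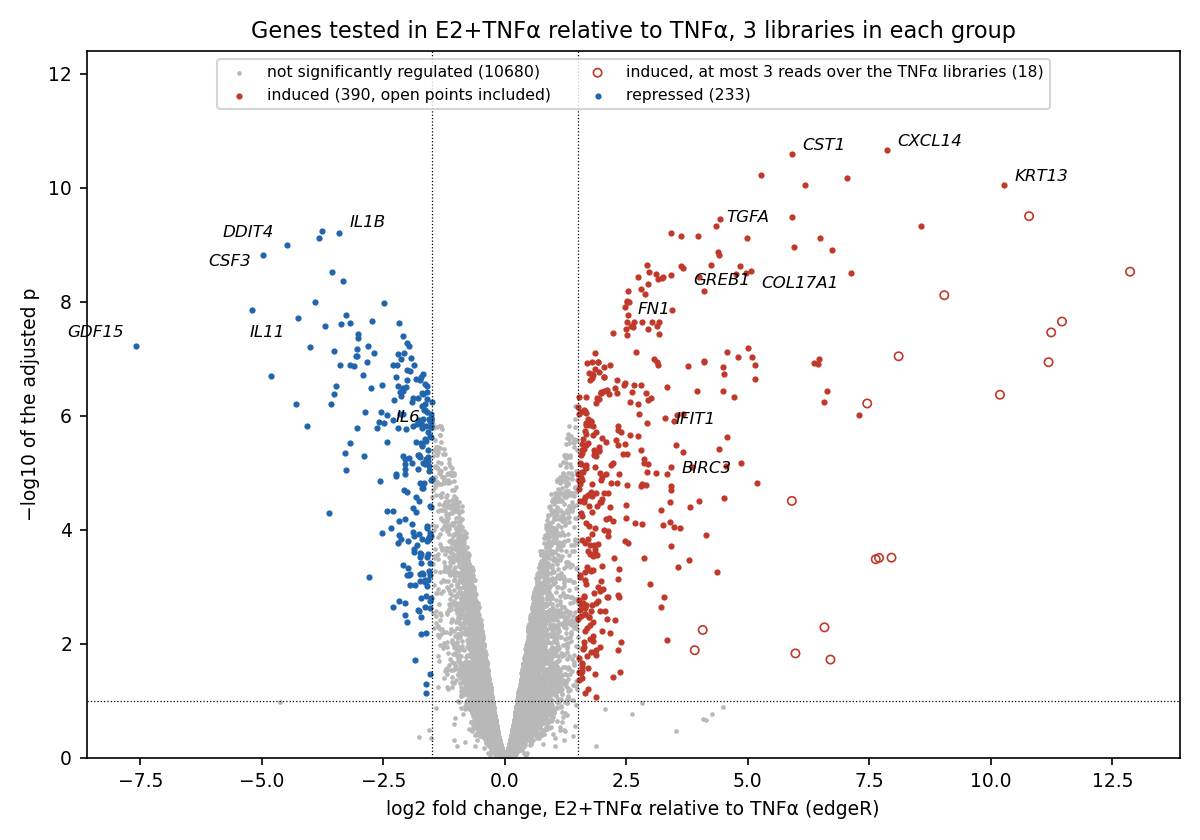
Log2 fold change (x axis) against the negative log10 of the adjusted p (y axis) for the 11303 genes tested in E2+TNFα relative to TNFα, with dotted lines at the thresholds. The 390 induced genes extend further from 0 than the 233 repressed genes, and the open circles mark 18 induced genes with at most 3 reads over the TNFα libraries, whose fitted values are not reliable as sizes.

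ESR2, which encodes ERβ, was detected in every library. Its level was 282, 255 and 228 CPM in the TNFα libraries and 433, 405 and 508 CPM in the E2+TNFα libraries, a rise of 0.80 on the log2 scale (SE 0.13, adjusted p = 0.000429). The groups did not overlap, and reads of the introduced construct and of the endogenous gene cannot be told apart in these counts. The study reports no appreciable ERβ mRNA in its TNBC lines without the construct, MDA-MB-231 among them.

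Known targets of estrogen receptors rose in E2+TNFα relative to TNFα. Of 37 tested members of a list of 40, 23 rose and 6 fell, with 16 induced and 1 repressed, and the median log2 fold change was 1.09. Over the alternative fits this median ranged from 0.72 to 1.19. GREB1, an estrogen-induced coactivator gene (chromosome 2, 11534116 to 11642788 in hg38), was at 4.61, 3.69 and 4.06 CPM in the TNFα libraries and 50.3, 49.5 and 58.5 CPM in the E2+TNFα libraries, a rise of 3.66 on the log2 scale (SE 0.17, adjusted p = 2.57e-09). In the libraries without TNFα, GREB1 was at 3.44 CPM with vehicle and 51.6 CPM with E2. TFF1, a secreted mucosal protein gene and a classical estrogen target, had 0 reads in the 3 TNFα libraries and 79 in the E2+TNFα libraries, and was at least 27-fold higher when set against 3 reads over the TNFα group.

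The largest fitted rises of the list beside TFF1 were those of KRT13, CCN5, PDZK1 and TGFA. TGFA, which encodes a ligand of the EGF receptor, was at 32.7, 25.9 and 35.9 CPM in TNFα and 699, 651 and 595 CPM in E2+TNFα, 20.3-fold higher, with no overlap. KRT13, an epithelial keratin gene, went from 8 reads over the TNFα libraries to 10457 over the E2+TNFα libraries. CCN5, a secreted regulator of growth, went from 6 reads, all in TNFα replicate 3, to 1051. PDZK1, a scaffold protein gene, was at 0.362, 0.261 and 1.04 CPM in TNFα and 17.7, 21.3 and 15.9 CPM in E2+TNFα. These fitted values rest on few TNFα reads. On leaving out 1 library, that of KRT13 (10.27) went to 11.49 without TNFα replicate 1, that of CCN5 (7.28) to 11.49 without TNFα replicate 3 and that of PDZK1 (5.14) to 5.86 without TNFα replicate 3, all still induced. IGFBP4, an inhibitor of insulin-like growth factors with one of the highest levels per length of the list, also rose, by 1.98 on the log2 scale (adjusted p = 3.93e-07). The repressed member was PTGES, the inducible prostaglandin E synthase, which was at 19.9 ± 1.97 CPM in TNFα and 2.31 ± 0.446 CPM in E2+TNFα and fell by 3.10 on the log2 scale (adjusted p = 1.33e-07).

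NFκB target genes fell more often than they rose. Of 53 tested members of a list of 56, 27 fell and 10 rose, 9 were repressed and 3 induced, and the median log2 fold change was -0.43. The falls were largest among secreted cytokines. IL1B, the proinflammatory cytokine interleukin 1 beta (chromosome 2, 112829751 to 112836779), was at 1531, 1559.8 and 1711 CPM in the TNFα libraries and 157, 148 and 153 CPM in the E2+TNFα libraries. The groups were far apart, and IL1B fell by 3.41 on the log2 scale (SE 0.13, adjusted p = 6.2e-10). IL11, a cytokine of the IL6 family, was at 462, 331 and 697 CPM in TNFα and 28.6, 23.4 and 26.8 CPM in E2+TNFα and fell by 4.26 (SE 0.24, adjusted p = 1.94e-08). Its TNFα libraries spread by more than a factor of 2, yet the lowest of them was above every E2+TNFα library. CSF3, the granulocyte colony-stimulating factor, was at 113, 102 and 123.3 CPM in TNFα and 2.66, 3.01 and 4.97 CPM in E2+TNFα, a fall of 4.97 (adjusted p = 1.54e-09).

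TNF itself, IL6 and the neutrophil-attracting chemokines CXCL1 and CXCL2 fell by smaller amounts. TNF was at 38.7, 37.4 and 34.0 CPM in the TNFα libraries and 9.83, 7.56 and 8.90 CPM in the E2+TNFα libraries and fell by 2.09 on the log2 scale (adjusted p = 3.27e-07). CXCL2 was at 189, 217 and 233 CPM in TNFα and 69.1, 64.0 and 59.7 CPM in E2+TNFα and fell by 1.75 (adjusted p = 2.37e-07). IL6 was at 975, 935 and 1096 CPM in TNFα and 354, 323 and 406 CPM in E2+TNFα. No values of these genes overlapped between the groups. IL6 fell by 1.49 (adjusted p = 1.52e-06), just short of the size set for repression, and passed it in 3 of the 6 fits that left out 1 library. CXCL1 fell by 0.65 (adjusted p = 0.000716), from 425 ± 28.6 to 274 ± 6.05 CPM. ALOX5AP, which encodes the activating protein of 5-lipoxygenase, was low in both groups, at 7.44, 5.06 and 9.26 CPM in TNFα and 1.17, 1.57 and 2.01 CPM in E2+TNFα, and was repressed (-2.18, adjusted p = 0.000123). Its log2 fold change was 0.10 in a fit with a factor estimated from 20 housekeeping genes. That factor was nearly collinear with the groups, so no value given below from this fit is reliable as a size.

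CXCL8, which encodes the neutrophil chemokine interleukin 8, gave no call. Its level was 326, 592 and 362 CPM in TNFα and 362, 696 and 119 CPM in E2+TNFα, so the E2+TNFα libraries held both the highest and the lowest value (log2 fold change -0.14, SE 0.43, adjusted p = 0.833). The lowest was replicate 3, and CXCL8 has an exon GC content of 33.4%. In that library genes of the lowest quintile of exon GC content differed from the other E2+TNFα replicates by a median of -0.60 on the log2 scale. Whether GC content bears on the value of CXCL8 was not tested. The fits that left out 1 library ranged from -0.85 to 0.30. The highest was that without E2+TNFα replicate 3 and the lowest that without E2+TNFα replicate 2. With the trends of GC content and length removed, CXCL8 fell by 0.82 (adjusted p = 0.00635), so whether CXCL8 passed the test, and the size of its change, depended on the processing. In the fit with a housekeeping factor its value was -5.64 (adjusted p = 0.0195). That factor had an R2 of 0.942 with the groups and can hardly be separated from them, so this value is not reliable as a size.

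The NFκB targets that were induced were BIRC3, CCL5 and CD83, of which CCL5 and CD83 are named here after their values were seen. BIRC3 encodes an inhibitor of apoptosis (cIAP2) and lies on chromosome 11, 102317373 to 102339403. It was at 11, 12 and 10.1 CPM in the TNFα libraries and 119, 191 and 49.1 CPM in the E2+TNFα libraries, a rise of 3.42 on the log2 scale (SE 0.36, adjusted p = 7.92e-06), and its level was 70.2 CPM with vehicle and 26.8 CPM with E2. The groups did not overlap, but the E2+TNFα libraries spread by a factor of nearly 4. The exon GC content of BIRC3 was 36.2%, and with the trends of GC content and length removed its log2 fold change was 2.92. It was -0.34 in the fit with a housekeeping factor. CCL5, a T cell chemokine, rose by 2.99 (adjusted p = 0.000878) and CD83, a marker of mature dendritic cells, by 1.70 (adjusted p = 1.13e-06). Without TNFα replicate 3 the value of CCL5 was 3.64.

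**Figure D2:**
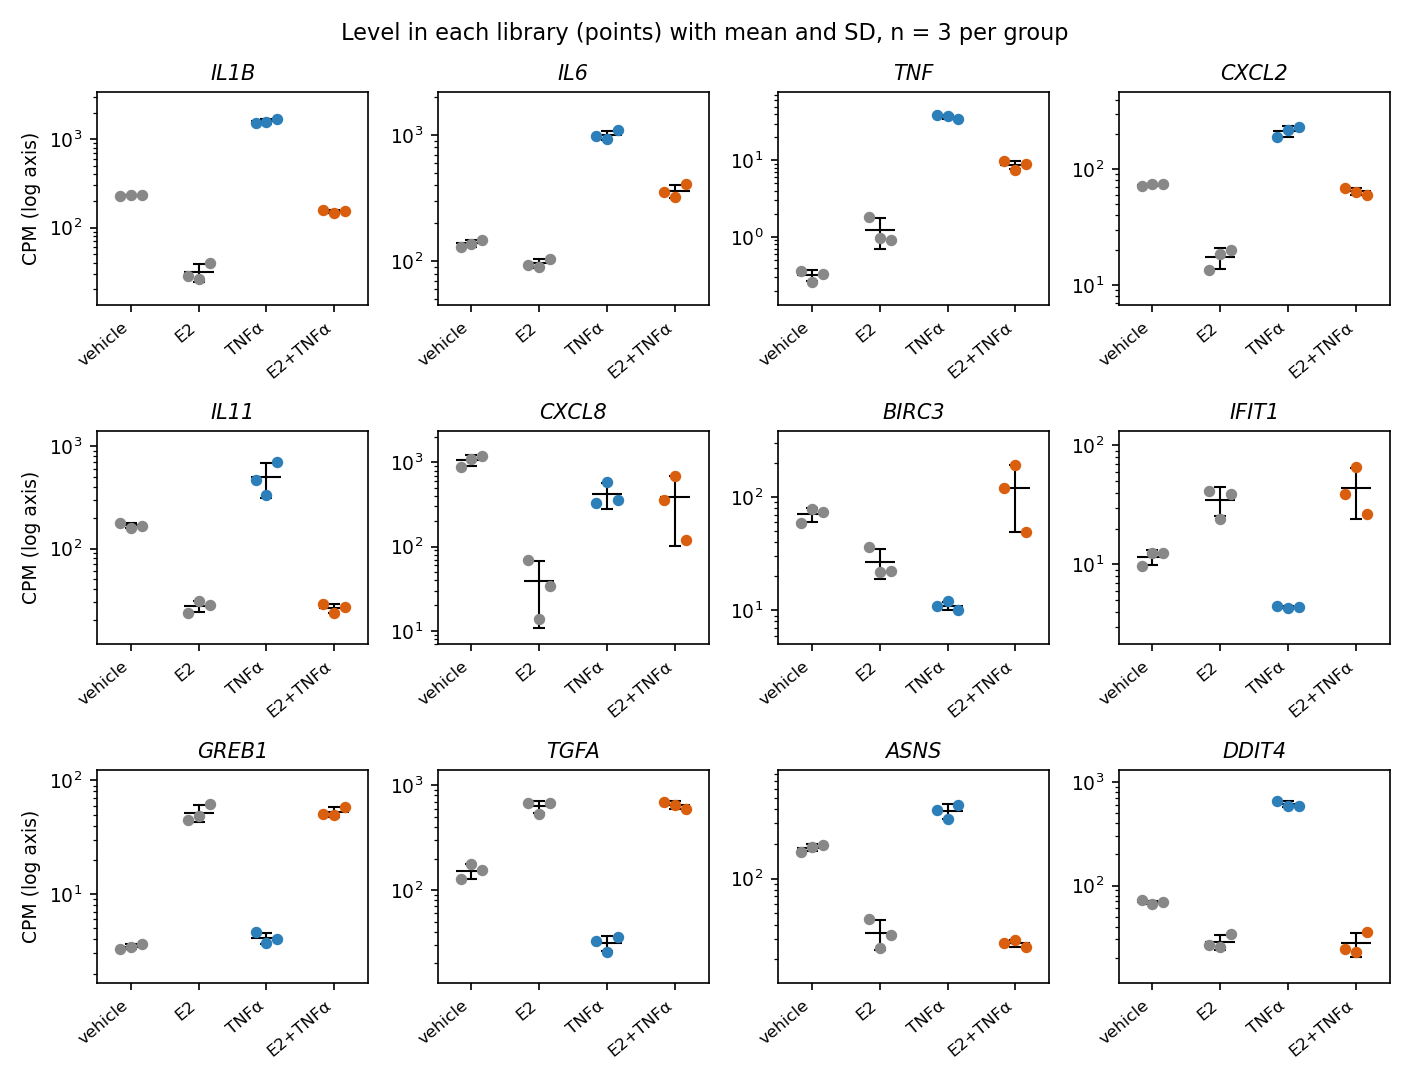
Levels in CPM on a log axis in each of the 12 libraries for 12 genes, with the mean and SD of 3 libraries per group (black). IL1B, IL6, TNF, CXCL2, IL11, ASNS and DDIT4 were lower and BIRC3, IFIT1, GREB1 and TGFA higher in every E2+TNFα library (orange) than in every TNFα library (blue), whereas the groups overlapped for CXCL8.

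Across 38 tested genes of cytokines and chemokines in a list of 43, some of which the NFκB list also holds, 18 fell and 9 rose, 9 were repressed and 4 induced, with a median of -0.48. TNFSF15, a TNF family ligand, was at 10.2 ± 2.06 CPM in TNFα and 0.574 ± 0.341 CPM in E2+TNFα and was repressed (-4.07, adjusted p = 1.5e-06; -4.67 without E2+TNFα replicate 3). CSF2, the granulocyte-macrophage factor with one of the highest levels per length of the list, fell by 1.63 (adjusted p = 6.19e-07). The opposite extreme was CXCL14, a homeostatic chemokine of epithelia, which was at 0.823, 0.620 and 0.832 CPM in the TNFα libraries and 188, 154 and 189.8 CPM in the E2+TNFα libraries and rose by 7.86 on the log2 scale (SE 0.19, adjusted p = 2.21e-11). It was at 0.670 CPM with vehicle and 208 CPM with E2.

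Genes of the NFκB pathway itself moved by less than the size set for regulation. None of 21 subunits and kinases was significantly regulated, with 5 rises, 7 falls and a median of 0.05. Of all genes tested 5.51% were significantly regulated, 22.7% rose and 21.6% fell. At that share of regulated genes, a list of this length would hold few of them in any case. RELA was at 315 ± 14.3 CPM in TNFα and 305 ± 31.8 CPM in E2+TNFα, with a log2 fold change of -0.07 (SE 0.12, adjusted p = 0.696) and overlapping groups. RELB and IKBKE, an alternative subunit and an IκB kinase-related kinase, fell by 0.61 and 0.61 (adjusted p = 0.00683 and 0.00229), and the kinase adaptor TAB3 rose by 1.08 (adjusted p = 0.00213). These directions turned in the fit with a housekeeping factor, nearly collinear with the groups, in which RELB was at 0.44, IKBKE at 0.12 and TAB3 at -0.91. Of 16 tested inhibitors of NFκB signaling, 6 rose, 6 fell and none was significantly regulated. Among them NFKBIZ, an atypical IκB protein, fell by 1.29 (adjusted p = 1.2e-05) and by 1.98 with a housekeeping factor (adjusted p = 0.0448), where it was repressed, ZC3H12A, which encodes an RNase that degrades cytokine transcripts, fell by 0.99 (adjusted p = 4.69e-05), and the deubiquitinase gene CYLD rose by 1.07 (adjusted p = 0.000338). Without E2+TNFα replicate 3 the medians of these lists were -0.09 and -0.10, and 8 of the subunits and kinases rose and 8 fell. In that fit 6586 of all genes tested passed the adjusted p in place of 5008.

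EZH2, the methyltransferase of Polycomb repressive complex 2, was at 18.2, 20.4 and 20.1 CPM in TNFα and 15.6, 13 and 11.1 CPM in E2+TNFα. Every E2+TNFα library was below every TNFα library, and EZH2 fell by 0.59 on the log2 scale (adjusted p = 0.0164). Of 13 genes of the complex and of H3K27 demethylases, 4 fell, 2 rose and none was significantly regulated, against 5.51% of all genes tested. PHF19, an accessory subunit, fell by 0.94 (adjusted p = 5.93e-05).

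Promoter sequences were available for 9245 of the 11303 genes tested (81.8%), taken from RefSeq on GRCh38.p14 as 250 bases before to 50 bases after the start of each gene. Distances of motifs are counted from this RefSeq start. The positions given with gene names come from the deposited counts instead, and for BIRC3, ASNS and IFIT1 the RefSeq start lies inside them. They were searched on both strands, as a description. The full ERE, GGTCANNNTGACC, was found in 1 of them and in none of the 286 promoters of induced genes, so the windows hold nearly none of these palindromes. Its arm GGTCA was found in 34.5% of all promoters and 30.8% of those of induced genes. The AP-1 motif TGANTCA was found in 4.36% of all promoters, 9.09% of those of induced genes and 6.43% of those of repressed genes. The κB motif was found in 13.1% of all promoters, 18.1% of those of 171 repressed genes, 10.5% of those of induced genes and 45.5% of those of 44 NFκB targets. Matches of these motifs did not overlap each other except for the arm within the full ERE. Stretches with the κB motif in capitals are shown for IL6 and CXCL2, which fell, and for BIRC3, which rose, since all hold the motif before the start of the gene. That of IL6 lies at chr7:22727087-22727176 on the plus strand with the motif 73 to 64 bases before the start, that of CXCL2 at chr4:74099224-74099313 on the minus strand with the motif at 78 to 69 bases, and that of BIRC3 at chr11:102317245-102317334 on the plus strand with the motif at 199 to 190 bases.
IL6: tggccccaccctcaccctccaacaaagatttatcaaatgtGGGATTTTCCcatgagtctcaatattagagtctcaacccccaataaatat
CXCL2: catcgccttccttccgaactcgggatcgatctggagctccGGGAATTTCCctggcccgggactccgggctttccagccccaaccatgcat
BIRC3: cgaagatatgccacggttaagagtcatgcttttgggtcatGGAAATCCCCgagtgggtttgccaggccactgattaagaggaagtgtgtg

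Genes of the ATF4 program fell together in E2+TNFα. ATF4 is the transcription factor of the integrated stress response, which is translated when amino acids are short or protein folding fails, and its targets make, import and charge amino acids. Of 36 targets and amino acid synthesis genes, 32 fell and 2 rose, 20 were repressed and none induced, and the median log2 fold change was -1.60. On leaving out E2+TNFα replicate 3 it was -1.63, again with 32 falls. ASNS, asparagine synthetase (chromosome 7, 97852117 to 97872542), was at 390.0, 324 and 434 CPM in the TNFα libraries and 27.7, 29.5 and 25.4 CPM in the E2+TNFα libraries and fell by 3.82 (SE 0.15, adjusted p = 7.58e-10). PHGDH, the first enzyme of serine synthesis, was at 37.7, 32.6 and 48.4 CPM in TNFα and 3.03, 2.20 and 2.82 CPM in E2+TNFα and fell by 3.91 (adjusted p = 1.03e-08). DDIT4, an inhibitor of mTORC1, was at 659, 589 and 589 CPM in TNFα and 24.4, 22.6 and 35.6 CPM in E2+TNFα and fell by 4.49 (adjusted p = 1.04e-09). In each of these genes the TNFα libraries were more than 10 times the E2+TNFα libraries.

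The largest fall of all named genes was that of GDF15, a stress-induced cytokine of the TGFβ family. It had 2403 reads over the TNFα libraries and 13 over the E2+TNFα libraries, 31.2, 18.1 and 46.8 CPM against 0, 0.210 and 0.210 CPM, a log2 fold change of -7.58 (SE 0.48, adjusted p = 5.95e-08). NUPR1, a stress-induced chromatin protein gene, was at 8.75 ± 2.21 CPM in TNFα and 0.318 ± 0.0507 CPM in E2+TNFα (-4.81, adjusted p = 2.04e-07). SESN2 and ATF3, a sensor of leucine and a transcription factor, fell by 2.73 and 2.14 (adjusted p = 2.21e-08 and 4.59e-07). EIF4EBP1, the repressor of cap-dependent translation, fell by 1.55 (adjusted p = 1.16e-06) from 569 ± 57.5 to 197 ± 22.1 CPM, and its fall of 1.47 without TNFα replicate 3 missed the size set for repression. Not all members followed, since SLC7A5, a leucine transporter subunit with one of the highest levels per length of the list, was at 0.29 on the log2 scale (adjusted p = 0.165) and was induced in the fit with a housekeeping factor (1.71, adjusted p = 0.0629). The members that rose were ATF5 and VLDLR, named after their values were seen, with log2 fold changes of 1.26 and 0.47 (adjusted p = 4.81e-06 and 0.0238), and VLDLR lost its call without TNFα replicate 1 (0.41), while ATF5 was induced with a housekeeping factor (1.70, adjusted p = 0.0606).

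The cytosolic aminoacyl-tRNA synthetases, which load amino acids onto tRNAs, also fell. Of 20 genes, 15 fell, none rose and 2 were repressed, with a median of -0.68. AARS, the alanine enzyme, was at 579, 487 and 618 CPM in TNFα and 171, 155 and 197 CPM in E2+TNFα and fell by 1.71 (adjusted p = 6.65e-07). YARS and MARS, the tyrosine and methionine enzymes, fell by 1.53 and 1.39 (adjusted p = 1.22e-06 and 4.96e-06). The groups did not overlap for these enzymes, and YARS missed the size set for repression without TNFα replicate 3 (-1.43) and without E2+TNFα replicate 2 (-1.46). By contrast, of 83 tested cytosolic ribosomal protein genes 11 rose, 12 fell and none was significantly regulated (median -0.05), and of 37 proteasome subunits 3 rose and 4 fell (median 0.18). Without E2+TNFα replicate 3, 28 of the ribosomal protein genes rose and 15 fell, and 14 of the proteasome subunits rose and 4 fell. In that fit 6586 of all genes tested passed the adjusted p in place of 5008.

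**Figure D3:**
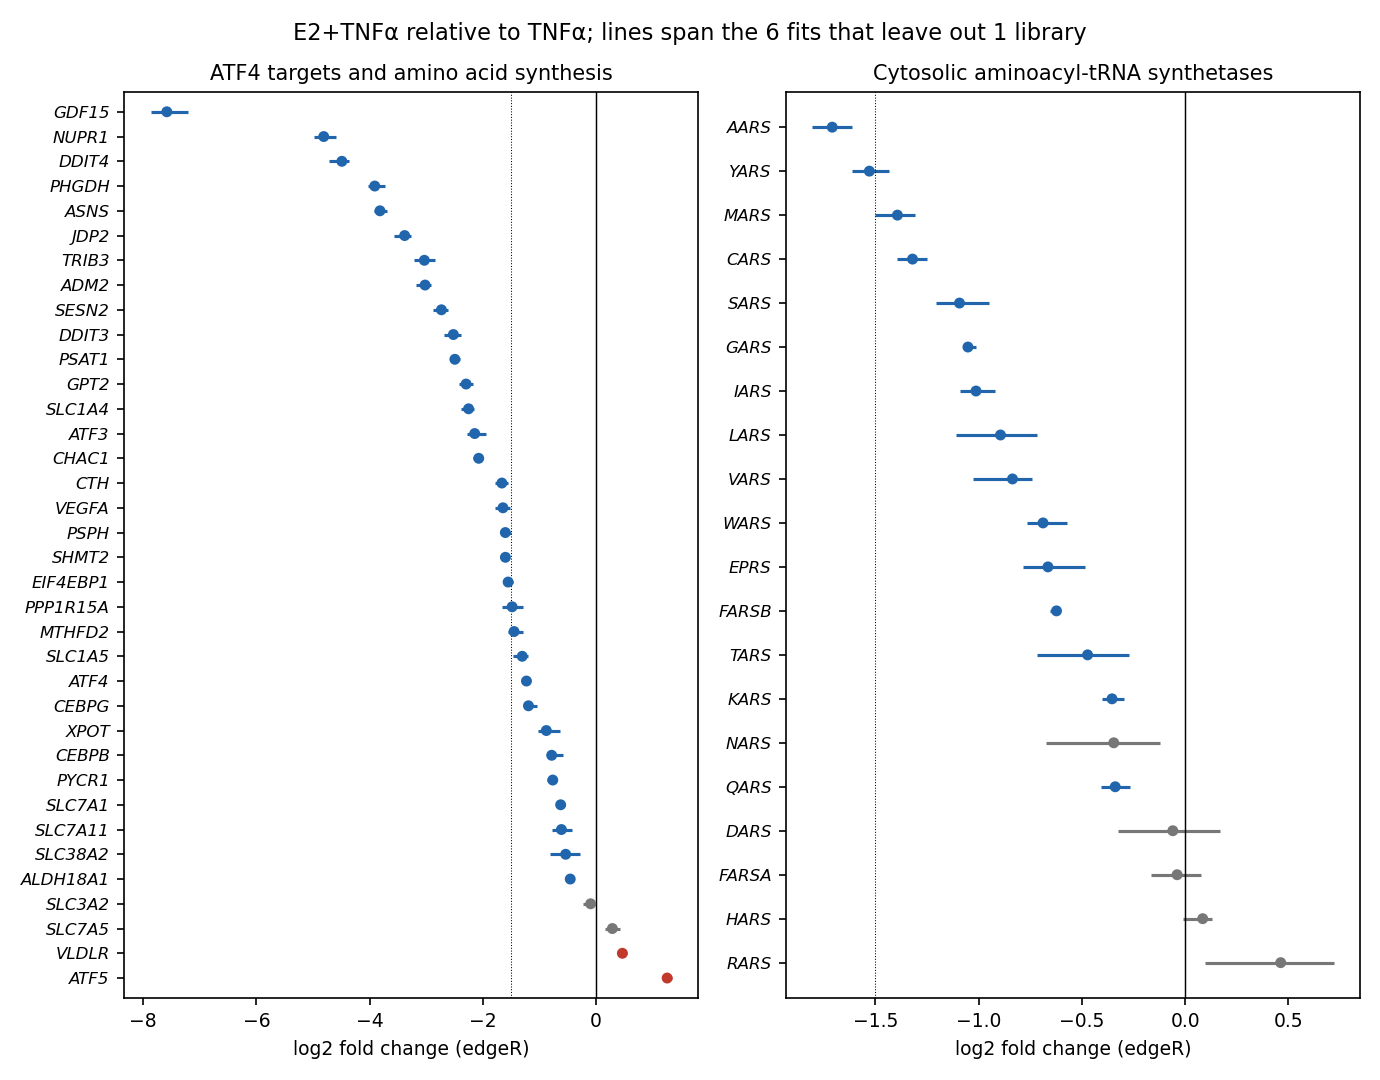
Log2 fold changes in E2+TNFα relative to TNFα (x axis) of the 36 ATF4 targets and amino acid synthesis genes (left) and the 20 cytosolic aminoacyl-tRNA synthetases (right), with lines spanning the 6 fits that leave out 1 library, blue for falls, red for rises and grey for genes with no call. In the left panel 32 of 36 points are blue and the medians of the panels are -1.60 and -0.68.

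The CARE motif, the element TGATGNAA bound by ATF4 with CEBP proteins, was searched after the values had been seen. It was found in 1.62% of all promoters, 8.19% of those of repressed genes, 2.80% of those of induced genes and 17.9% of those of 28 genes on the ATF4 list, and 1 match in all promoters overlapped a match of the interferon element described below. Stretches with this motif in capitals are shown for ASNS and for TBL1X, a corepressor subunit gene that is not on the list and was among the 12 largest falls. That of ASNS lies at chr7:97872429-97872516 on the minus strand, with the motif 68 to 61 bases before the start of the gene in RefSeq. That of TBL1X lies at chrX:9463207-9463294 on the plus strand, with the motif on the other strand 48 to 41 bases before the start. TBL1X was at 197, 178 and 208 CPM in TNFα and 14.8, 12.7 and 15.8 CPM in E2+TNFα, a fall of 3.77 (SE 0.14, adjusted p = 5.77e-10).
ASNS: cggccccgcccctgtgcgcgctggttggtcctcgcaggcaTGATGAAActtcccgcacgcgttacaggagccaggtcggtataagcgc
TBL1X: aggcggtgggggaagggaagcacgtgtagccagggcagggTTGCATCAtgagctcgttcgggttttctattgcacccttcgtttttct

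Interferon-stimulated genes, which encode antiviral effectors and sensors, rose. Of 43 tested members of a list of 49, 25 rose and 4 fell, 12 were induced and none repressed, and the median log2 fold change was 0.67. The median was 0.82 without E2+TNFα replicate 3. IFIT1, an antiviral RNA-binding protein gene (chromosome 10, 89392546 to 89406487), was at 4.48, 4.27 and 4.42 CPM in the TNFα libraries and 39.3, 65.9 and 26.6 CPM in the E2+TNFα libraries, a rise of 3.30 on the log2 scale (SE 0.28, adjusted p = 1.08e-06). OASL, a relative of the oligoadenylate synthetases, was at 15.8, 13.6 and 17.3 CPM in TNFα and 113, 100.1 and 117 CPM in E2+TNFα and rose by 2.80 (adjusted p = 5.94e-09). OAS1, which makes the second messenger that activates RNase L, rose by 2.31 (adjusted p = 1.53e-05) from 1.64 ± 0.190 to 8.29 ± 1.40 CPM. None of these genes overlapped between the groups, and the E2+TNFα libraries were tight for OASL and spread by a factor of more than 2 for IFIT1. ISG15, the ubiquitin-like modifier with one of the highest levels per length of the list, rose by 1.78 (adjusted p = 1.31e-06), whereas IFITM3, which blocks viral entry, had a log2 fold change of -0.01 (adjusted p = 0.970). In the libraries without TNFα, OASL was at 10.6 CPM with vehicle and 128 CPM with E2. Of 17 genes of MHC class I and antigen processing 1 rose and 5 fell, among them PSMB9, an immunoproteasome subunit gene, by 1.05 and NLRC5, the transactivator of MHC class I genes, by 0.95 (adjusted p = 0.000177 and 0.000129).

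The interferon-stimulated response element, GAAANNGAAA, also searched after the values had been seen, was found in 2.69% of all promoters and in 76.5% of those of 34 interferon-stimulated genes. It was found in 3.85% of promoters of induced genes and 7.02% of those of repressed genes. The stretch of IFIT1 with this motif in capitals, on the other strand 116 to 107 bases before the start of the gene in RefSeq, lies at chr10:89392467-89392556 on the plus strand.
IFIT1: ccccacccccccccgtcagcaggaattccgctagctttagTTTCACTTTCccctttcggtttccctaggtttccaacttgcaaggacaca

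**Figure D4:**
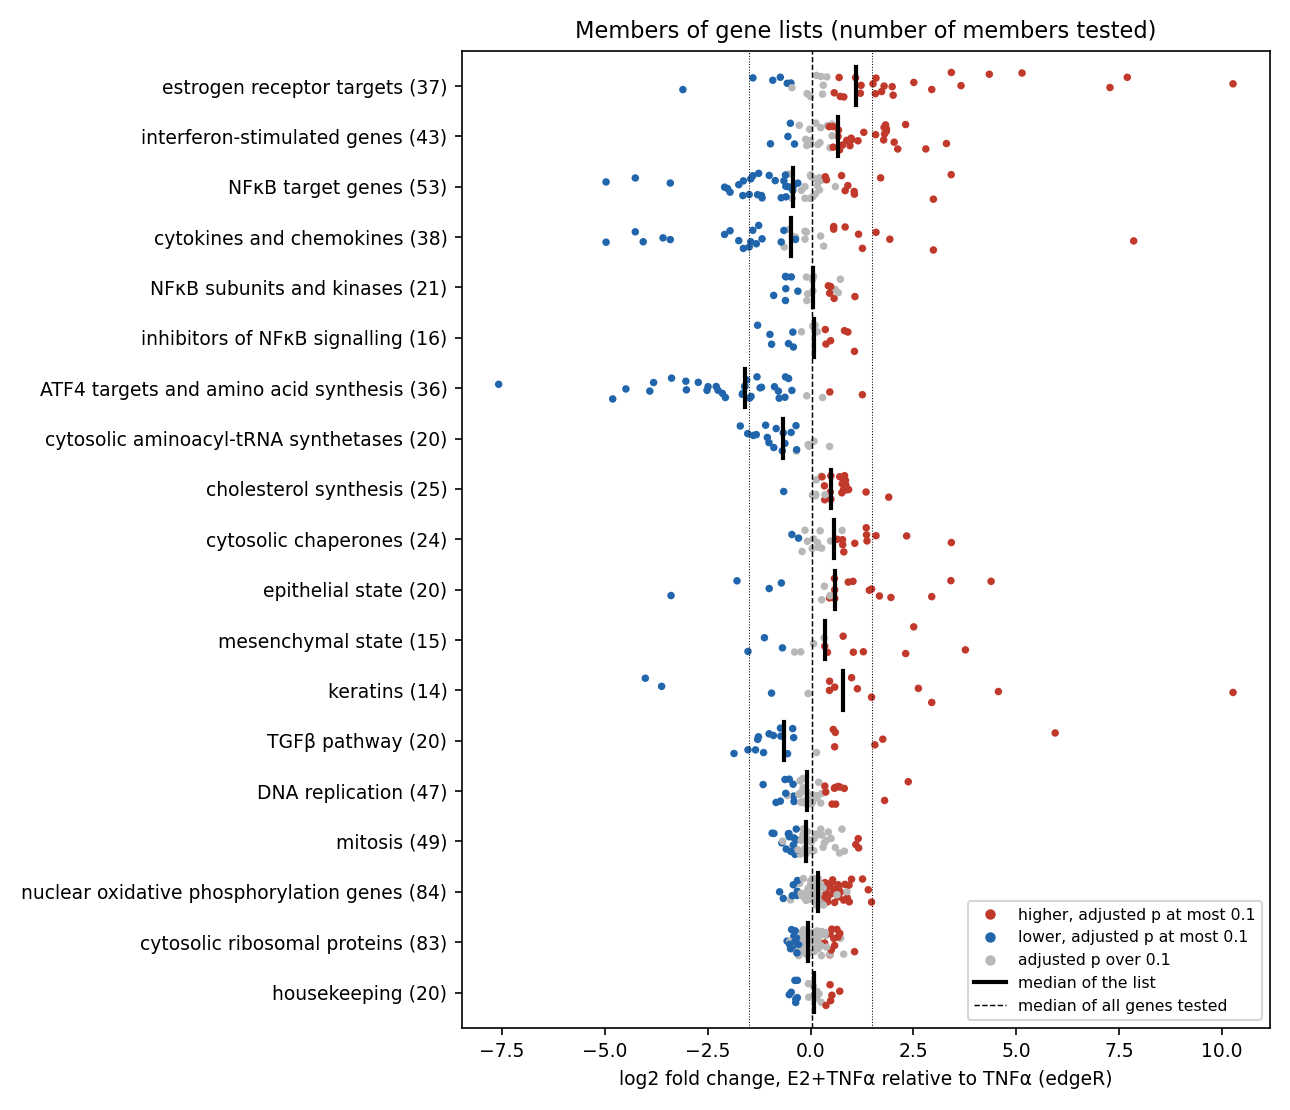
Log2 fold changes in E2+TNFα relative to TNFα (x axis) of the tested members of 19 gene lists, with red points higher and blue points lower at an adjusted p of at most 0.1, black bars at list medians and a dashed line at the median of all genes. Estrogen receptor targets and interferon-stimulated genes lie mostly to the right, ATF4 targets and aminoacyl-tRNA synthetases mostly to the left, and cytosolic ribosomal proteins are centred near 0.

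Several genes were near silent in TNFα libraries and present in E2+TNFα libraries. MAB21L4, a gene of epithelial differentiation, had 0 reads in the 3 TNFα libraries and 2873 in the E2+TNFα libraries (30.9, 32.0 and 43.7 CPM), at least 984-fold higher against 3 reads over the TNFα group. GJA5 (a connexin), S100A7 (psoriasin, a calcium-binding protein of stressed epithelium) and ACKR3 (an atypical chemokine receptor) also had 0 reads in TNFα and were at least 310-fold, 294-fold and 151-fold higher. F13A1, coagulation factor XIII subunit A, went from 1 read to 2385, a ratio of 2449 with a 95% exact interval of 439 to 96784. SERPINA9, GCNT3 and B3GNT6 each had 2 reads in TNFα, with ratios of 635 (interval 175 to 5247), 324 (89.3 to 2681) and 219 (60.3 to 1816). These bounds and intervals cover counting error only. They rest on so few TNFα reads that the fitted log2 values moved by over 1.5 times in fold when TNFα replicate 1 or 2 was left out, for F13A1 to 12.61 and for SERPINA9 to 11.65 without TNFα replicate 1, and for GCNT3 to 10.71 and B3GNT6 to 10.06 without TNFα replicate 2. MAB21L4 was at 0.0617 CPM with vehicle and 40.3 CPM with E2, and F13A1 at 0.0920 and 34.6 CPM, so both were likewise near silent without E2 in the absence of TNFα.

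Cystatins, secreted inhibitors of cysteine proteases, were prominent among the rises. Of 8 genes 6 rose, 1 fell, 4 were induced and 1 repressed, with a median of 2.88, which was 0.49 over the members with at least 10 counts in each library. Of all genes tested 22.7% rose and 3.45% were induced. The list was written with earlier results of these data known and was corrected after values were seen. Its counts are therefore a description only. CST1 was at 9.94, 9.46 and 9.93 CPM in the TNFα libraries and 607, 525 and 655 CPM in the E2+TNFα libraries, a rise of 5.91 on the log2 scale (SE 0.15, adjusted p = 2.57e-11). CST4 was at 7.15 ± 0.571 CPM in TNFα and 279.6 ± 27 CPM in E2+TNFα and CST2 at 0.0983 ± 0.0866 and 44.7 ± 3.40 CPM. CST5 had 0 reads in TNFα and was at least 364-fold higher. CST1, CST2 and CST4 are close paralogs that may share reads, so their separate values are uncertain. CST7, named after its value was seen and known from immune cells, fell by 3.19 (adjusted p = 2.96e-06).

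Genes of epithelial differentiation and adhesion rose, and several mesenchymal genes rose with them. Of 20 tested epithelial genes 13 rose and 4 fell, with 5 induced, 2 repressed and a median of 0.59, and of 15 mesenchymal genes 8 rose and 3 fell, with 3 induced, 1 repressed and a median of 0.35. CDH1, E-cadherin, was at 1.81, 2.12 and 1.77 CPM in TNFα and 43.9, 34.9 and 43.2 CPM in E2+TNFα and rose by 4.39 on the log2 scale (adjusted p = 1.32e-09). CDH2, N-cadherin of mesenchymal cells, was at 1.25, 1.17 and 1.09 CPM in TNFα and 17.4, 19.5 and 12 CPM in E2+TNFα and rose by 3.76 (adjusted p = 1.33e-07). ELF3, an epithelial transcription factor gene, rose by 3.41 (adjusted p = 6.25e-10) from 36.0 ± 2.39 to 388 ± 29.6 CPM. Neither cadherin overlapped between the groups. FN1, fibronectin, was at 898, 928 and 875 CPM in TNFα and 5344, 4747 and 5482 CPM in E2+TNFα and rose by 2.51 (adjusted p = 9.83e-09). CLDN1, a tight junction protein gene, was repressed, at 21.5, 16.7 and 27.6 CPM in TNFα and 2.29, 2.06 and 2.01 CPM in E2+TNFα (-3.39, adjusted p = 1.27e-07). TGFBI, a matrix protein gene, fell by 1.52 (adjusted p = 1.5e-06), and without E2+TNFα replicate 2 its log2 fold change of -1.41 missed the size set for repression.

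Keratins divided. Of 14 genes 10 rose and 3 fell, with 4 induced and 2 repressed. KRT19 was at 298, 264 and 250.1 CPM in TNFα and 1985, 1939.9 and 2415 CPM in E2+TNFα and rose by 2.95 (adjusted p = 4.89e-09), and KRT17 rose by 4.57 (adjusted p = 7.76e-08) from 0.626 ± 0.229 to 15.4 ± 2.85 CPM. The repressed keratins were the hair keratins KRT81 and KRT86, which are close paralogs that may share reads. KRT81 was at 59.6 ± 19.2 CPM in TNFα and 3.65 ± 0.855 CPM in E2+TNFα, a fall of 4.02 (adjusted p = 6.27e-08). KRT86 fell by 3.62 (adjusted p = 5.11e-05), and by 4.31 without E2+TNFα replicate 2.

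Among genes of the extracellular matrix and its receptors, changes of large size went both ways. COL17A1, a hemidesmosomal collagen, rose by 5.07 (adjusted p = 2.92e-09) from 3.51 ± 1.24 to 122.7 ± 19.8 CPM. Yet over the lists the collagens (5 rose and 4 fell of 17), laminins (3 and 2 of 8) and integrins (4 and 4 of 12) had medians of -0.14, 0.12 and 0.20. Of all genes tested 22.7% rose and 21.6% fell. COL8A1 and LAMA4 were repressed, with falls of 1.64 and 2.58 (adjusted p = 8.08e-07 and 1.38e-05). PLAU, the urokinase plasminogen activator and an NFκB target, was at 1142, 994 and 1083 CPM in TNFα and 255, 235 and 315 CPM in E2+TNFα, with no overlap, and fell by 2.02 (adjusted p = 1.56e-07). SERPINB2, an inhibitor of urokinase, fell with it, by 2.81 (adjusted p = 5.94e-08). The metalloproteases ADAM12 and ADAM19 rose by 4.48 and 1.91 (adjusted p = 3.65e-07 and 1.16e-07). HAS2, hyaluronan synthase, was among the 12 largest falls, at 7.90 ± 0.151 CPM in TNFα and 0.415 ± 0.182 CPM in E2+TNFα (-4.30, adjusted p = 6.19e-07), as was DMBT1, a secreted scavenger receptor, at 74.7 ± 15.8 and 1.93 ± 0.927 CPM (-5.21, adjusted p = 1.4e-08).

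Genes of growth factor pathways moved both ways, as did all genes tested, of which 22.7% rose and 21.6% fell. Of 10 genes of EGF receptors and ligands 3 rose and 5 fell. EGFR was at 241, 227 and 279 CPM in TNFα and 99.6, 90.1 and 83.0 CPM in E2+TNFα and fell by 1.47 (adjusted p = 1.4e-06), and HBEGF, a ligand, fell by 1.33 (adjusted p = 2.18e-06), against the rise of TGFA given above. Of 19 genes of ERK feedback 9 fell and 6 rose. DUSP6, a phosphatase of ERK, was at 74.3, 71.3 and 72.0 CPM in TNFα and 23.9, 23.8 and 24.8 CPM in E2+TNFα and fell by 1.60 (adjusted p = 3.77e-07), and DUSP5 fell by 2.20 (adjusted p = 8.14e-08). Of 20 genes of the TGFβ pathway 13 fell and 6 rose, with 3 induced, 2 repressed and a median of -0.64. INHBB, an activin subunit, rose by 5.95 (adjusted p = 1.11e-09) from 0.732 ± 0.149 to 45.0 ± 10.5 CPM, and FST, the activin antagonist follistatin, fell by 1.86 (adjusted p = 1.28e-07) from 68.4 ± 2.65 to 19.1 ± 0.722 CPM. In the WNT pathway 5 of 22 genes rose and 10 fell, with RNF43, a ligase that removes WNT receptors, repressed by 3.51 on the log2 scale and the ligand gene WNT7B induced by 2.39 (adjusted p = 4.11e-07 and 1.96e-06). In the NOTCH pathway the ligand gene JAG1 fell by 1.73 (adjusted p = 2.96e-06). Of 22 AP-1 and immediate early factors 3 rose and 9 fell, among them MYC, which was at 688 ± 69.9 CPM in TNFα and 264 ± 47.8 CPM in E2+TNFα (-1.40, adjusted p = 8.25e-06).

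In metabolism, cholesterol synthesis genes rose by small amounts. Of 25 genes 18 rose and 1 fell, but only HMGCS1, which makes the precursor of mevalonate, was induced, and the median was 0.49. HMGCS1 was at 11.6, 16.5 and 9.05 CPM in TNFα and 48.3, 59.7 and 33.1 CPM in E2+TNFα and rose by 1.90 (adjusted p = 3.84e-05), with no overlap, against -0.85 in the fit with a housekeeping factor. SQLE, squalene epoxidase, rose by 0.87 (adjusted p = 0.000415). Of 84 tested nuclear genes of oxidative phosphorylation 29 rose, 7 fell and none was significantly regulated (median 0.17), and of 13 mitochondrially encoded genes 1 rose and 4 fell (median -0.30). Of 23 glycolysis genes 6 rose and 7 fell, against 22.7% and 21.6% of all genes tested. Only HK2, a hexokinase, was repressed, from 71.1 ± 7.91 to 16.8 ± 3.25 CPM (-2.10, adjusted p = 3.74e-07). SLC2A1, the glucose transporter GLUT1, fell by 0.87 (adjusted p = 0.000195, and 0.069 with a housekeeping factor), whereas SLC2A5, a fructose transporter gene, went from 7 reads over the TNFα libraries to 275 (5.19 on the log2 scale, and 4.56 to 6.19 without TNFα replicate 1 and without TNFα replicate 2). Of 26 hypoxia genes 10 rose and 5 fell, with 3 induced and 2 repressed. STC1, LOX and PLOD2 were induced (2.65, 2.31 and 1.80, adjusted p = 2.25e-08, 2.37e-07 and 1.59e-05). The largest change of the list was the fall of DDIT4 given above, and VEGFA, named after its value was seen, fell by 1.64 (adjusted p = 2.55e-06). In prostaglandin and leukotriene synthesis 5 of 7 genes fell, led by PTGES and ALOX5AP. HMOX1, heme oxygenase, was at 32.2, 27.9 and 36.7 CPM in TNFα and 276, 257 and 316 CPM in E2+TNFα and rose by 3.12 (adjusted p = 3.25e-09), and TXNIP, an inhibitor of thioredoxin, was at 291, 231 and 464 CPM in TNFα and 36.8, 38.6 and 34.5 CPM in E2+TNFα and fell by 3.18 (adjusted p = 1.27e-07).

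Cytosolic chaperone genes rose in 11 of 24 cases and fell in 2, with 3 induced and a median of 0.57, which was -0.11 in the fit with a housekeeping factor. The induced members were HSPB8, HSPB1 and DNAJB4, of which both small heat shock protein genes are also on the estrogen target list. HSPB8 was at 32.0, 28.2 and 40.9 CPM in TNFα and 379, 322 and 395 CPM in E2+TNFα and rose by 3.42 (adjusted p = 3.37e-09). HSPA8, the constitutive HSC70, rose by 1.37 (adjusted p = 4.78e-05) from 1338 ± 369 to 3509 ± 126 CPM, against -0.092 in the fit with a housekeeping factor. HSPB1 rose by 1.59 (adjusted p = 3.12e-06) and by 1.42, short of the size set for induction, without E2+TNFα replicate 3. DNAJB4, a cochaperone gene, had 38 reads over the TNFα libraries and 175 over the E2+TNFα libraries (2.34 on the log2 scale, 3.21 without TNFα replicate 1, -0.67 with a housekeeping factor). In the fit without E2+TNFα replicate 3, 15 of the 24 genes rose, with 6586 of all genes tested past the adjusted p in place of 5008. HERPUD1 and ERN1, genes of the unfolded protein response in the endoplasmic reticulum, were repressed (-1.69 and -1.51, adjusted p = 4.11e-07 and 4e-05), ERN1 in 3 of the 6 fits that left out 1 library (up to -1.36 without TNFα replicate 3, and 0.19 with a housekeeping factor), while 9 of 24 genes of endoplasmic reticulum chaperones rose and 3 fell.

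Of 47 DNA replication genes 11 rose and 9 fell (median -0.08), near the 22.7% and 21.6% of all genes tested. Of 49 mitosis genes 3 rose and 14 fell (median -0.11). In the fit with a housekeeping factor, in which 689 of the 11303 genes tested passed the adjusted p, none rose and 9 fell (median -0.99). GINS4, a subunit of the replicative helicase, was at 56.6, 63.2 and 53.2 CPM in TNFα and 218, 182 and 211 CPM in E2+TNFα and rose by 1.80 (adjusted p = 1.84e-07), whereas MCM2, another helicase subunit, fell by 0.84 and E2F7, a repressor of E2F targets, by 1.15 (adjusted p = 0.000540 and 5.36e-05). The count for mitosis moved with E2+TNFα replicate 3. Without it 15 genes rose and 18 fell, in a fit in which 6586 of all genes tested passed the adjusted p in place of 5008. Of 26 cell cycle inhibitors and p53 targets 10 rose and 7 fell, and BBC3, the proapoptotic gene PUMA, was repressed, from 36.9 ± 2.93 to 11 ± 1.15 CPM (-1.76, adjusted p = 1.21e-06). Of 20 housekeeping genes 5 rose, 7 fell and none was significantly regulated (median 0.08).

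Among the remaining classes, 2 of 21 nuclear receptor genes rose and 10 fell, with VDR, the vitamin D receptor, repressed (139.6 ± 14.6 CPM in TNFα, 44.8 ± 5.95 CPM in E2+TNFα, -1.66 on the log2 scale, adjusted p = 8.08e-07). Without E2+TNFα replicate 3, 15 of the nuclear receptor genes fell. Of 158 zinc finger genes on chromosome 19, 31 rose and 20 fell, and of 169 on other chromosomes, 18 rose and 47 fell, with medians of 0.17 and -0.07 and median exon GC contents of 44.2% and 47.9%. Without E2+TNFα replicate 3 the counts were 53 and 26 on chromosome 19 and 28 and 60 elsewhere. In that fit 6586 of all genes tested passed the adjusted p in place of 5008. Of 8 host genes of small nucleolar RNAs 5 fell and none rose, for example SNHG3, by 1.06 (adjusted p = 3.53e-05). Of 196 solute carriers 42 rose and 50 fell, near the shares of all genes, and SLC9A3R1, a scaffold protein that the symbol places in this class, rose by 2.51 (adjusted p = 3.88e-08). Of 14 S100 genes 5 rose and 1 fell, with S100A9, a subunit of calprotectin, going from 9 reads over the TNFα libraries to 776 (6.36 on the log2 scale, 7.15 without TNFα replicate 3).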

How the data were processed

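RNA was sequenced from 12 samples of MDA-MB-231-ERβ cells, of which 3 TNFα and 3 E2+TNFα libraries were compared. The authors mapped reads to hg38, with TopHat2 2.1.0 named in their processing notes, and counted them by featureCounts. Deposited values were whole-number read counts per gene, 1 column per library with no pooling, and the correction for unwanted variation that the study's methods describe is not part of them. The annotation release and the strand setting of the counting are not given in the sources used here, so overlapping and antisense genes and close paralogs may share reads.

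Of 12567 deposited entries, 46 exact repeats and 70 entries of another symbol at the same locus were dropped, and 11303 entries whose RPKM reached 1 in 3 or more of the 12 libraries were tested. Log2 fold changes, SE and p-values came from the quasi-likelihood test of edgeR 4.0.16 (R 4.3.3) with TMM normalization, fitted to the 6 libraries, and p-values were adjusted by Benjamini-Hochberg over all genes tested. CPM were computed with TMM normalization over all 12 libraries. The code was tested on simulated data. DESeq2 1.42.0, other normalizations and filters, all 12 libraries, a replicate block, a factor from 20 housekeeping genes, removal of trends with exon GC content and length, and leaving out each library were alternatives. Ratios for genes with 1 to 3 reads in a group have exact 95% intervals, and 3 counts over the group stand for 0. Depth limits precision for low genes, and intervals cover counting error only.

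The comparison, gene lists and tests were chosen with earlier results of these data known. After values were seen, the cystatin and nuclear receptor lists were corrected, a list of mitochondrially encoded genes was added, and the CARE and interferon response motifs were chosen. Genes were named if the study's design turned on them, if they were among the 12 largest changes in a direction at a mean of at least 1 CPM with no overlap, or if they were among up to 4 largest changes or up to 2 highest levels per length of a list. Names outside this rule are marked in the text. Promoter sequences came from RefSeq on GRCh38.p14.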

Additional observations from a re-analysis of the deposited data

How the results depend on the processing

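The number of significantly regulated genes was 579 to 730 on leaving out 1 library, 730 being without E2+TNFα replicate 3, and 3622 to 6586 genes passed the adjusted p alone. In the fits that kept all libraries it was 556 to 658, except that without a filter on low values it was 830 of 12416 genes, and DESeq2 gave 622, of which 615 were shared with edgeR. With a factor from 20 housekeeping genes, which had an R2 of 0.942 with the groups, 689 genes passed the adjusted p in place of 5008, and 226 of the 623 regulated genes remained regulated. Such a factor can hardly be separated from the groups, so values of this fit are not reliable as sizes. In that fit the direction turned for ALOX5AP (0.10), AXL (0.58), BIRC3 (-0.34), DNAJB4 (-0.67), ERN1 (0.19), HMGCS1 (-0.85), HSPA8 (-0.092), IFITM3 (0.67), IKBKE (0.12), RELA (0.56), RELB (0.44), SLC2A1 (0.069), TAB3 (-0.91) and ZEB1 (-0.57), and the cause was not tested. CXCL8 (-5.64, adjusted p = 0.0195) and NFKBIZ (-1.98, 0.0448) became repressed and SLC7A5 (1.71, 0.0629) and ATF5 (1.70, 0.0606) induced in it. Medians of described lists that turned sign in it were those of AP-1 factors (1.10), EGF receptors and ligands (0.14), MHC class I genes (0.65), PRC2 genes (-0.31), the WNT pathway (0.25), collagens (0.78), cytosolic chaperones (-0.11), hypoxia genes (-0.12), oxidative phosphorylation genes (-0.038), proteasome subunits (-0.14), nuclear receptors (0.33), small nucleolar RNA host genes (0.061), solute carriers (0.19) and zinc finger genes of chromosome 19 (-0.24), and that of mitosis genes was -0.99. Genes without a call also turned elsewhere. CXCL8 ranged from -0.85 to 0.30 on leaving out 1 library, and was 0.17 without TNFα replicate 2. IFITM3 was 0.011 with all 12 libraries and ranged from -0.062 to 0.091 on leaving out 1 library. RELA was 0.058 with trends of GC content and length removed, with or without the replicate block. Of 129 genes of the text that were followed across the fits, 57 changed a call or a direction in at least 1 of the 16 alternatives. With the cystatins that had at least 10 counts in each library, the median of that list was 0.49.

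With a replicate block, 621 genes were significantly regulated, 612 of them shared. Deviations of the libraries with the same number correlated at -0.30, 0.47 and -0.01 across genes. With 3 libraries per group, and E2+TNFα replicate 3 apart, this cannot show whether the numbers pair the samples. E2+TNFα replicate 1 and replicate 3 did not correlate best with their own number, whereas replicate 2 did. Changes of genes with few reads in a group are limited by depth.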

Other observations

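Some entries under the level set for testing also differed. When no filter on low values was applied, 206 of them met the thresholds for regulation, 137 higher and 69 lower in E2+TNFα, and 90 had a mean of at least 1 CPM. Examples, chosen after their values were seen, are long genes whose RPKM is low for their counts. ITGB8, an integrin subunit, was at 1.62 CPM (mean, n = 3) in TNFα and 12.5 CPM in E2+TNFα, higher by 2.90 on the log2 scale (adjusted p = 1.18e-06, edgeR). SEMA5A, a semaphorin, was at 3.09 and 12.3 CPM, higher by 1.97 (adjusted p = 7.64e-06). SYNE1, a nuclear envelope protein gene, was at 4.27 and 12.9 CPM, higher by 1.56 (adjusted p = 1.67e-04). The groups did not overlap for these genes. In the libraries without TNFα, ITGB8 was at 1.27 CPM with vehicle and 5.72 CPM with E2. SEMA5A was at 8.75 CPM with vehicle and 9.28 CPM with E2, and SYNE1 at 10.2 and 8.84 CPM.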
